A study of Arabidopsis thaliana with 6 samples.

Results

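EXPA8 (AT2G40610) and EXPB3 (AT4G28250) encode expansins, 1 of the alpha class and 1 of the beta class. Both were found by symbol, as the only gene listed for their probe set in the platform annotation, and each has 1 probe set, 255822_at for EXPA8 and 253815_at for EXPB3. Theirs are 2 of the 22810 probe sets on the array, and they are 2 of 19 expansin and expansin-like genes that have a probe set of their own in that annotation, out of 37 in the gene table. A probe set combines the readings of several short probes for a transcript into 1 signal.

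Expansins are secreted proteins that loosen the plant cell wall without cutting its polymers, by easing the contacts between cellulose and the glycans bound to it. They act best at acid pH, which proton pumps in the plasma membrane create, and the loosened wall then yields to turgor so that the cell enlarges. Alpha expansins are the class best known for growth of dicot cells, and beta expansins form the second large class.

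Leaf RNA was measured on 6 ATH1 arrays, 3 of the pho1 mutant and 3 of wild-type Col-2. The mutant carries an allele induced with EMS, a chemical mutagen, in the Col-2 background, and PHO1 is known as the exporter that loads phosphate into the xylem for the shoot. All plants were sampled as rosette leaves at developmental stage 3.90, after growth in a room at 24 °C with 80% humidity and a 16 h photoperiod, on agar (0.8%) that held 1% sucrose and MS salts. Both groups have replicates numbered 1 to 3; the labels do not say whether these came from separate plants, so the p-values reflect only how these arrays vary, and that variation may be technical. No probe set names PHO1, so the mutated gene itself was not measured here. Whole leaves were used, so fewer cells of a type and less RNA per cell cannot be told apart.

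Signals of 3 other genes, picked because earlier results of these arrays showed them far apart between the groups, describe each array and are no check of its label. AT5G20790 had signals of 817, 1612 and 2174.5 in pho1 replicates 1, 2 and 3, against 1.90, 1.40 and 23.2 in wild type. AT1G13750 lay between 526 and 581 in pho1 and between 27.2 and 55.2 in wild type. AT1G73600 lay between 39.6 and 135 in pho1 and between 570.4 and 982.5 in wild type. The separation of the groups in these genes is fixed by how they were picked. Both replicate 1 arrays stood apart in their controls: the median signal of 24 spike-in probe sets was 2.10 in pho1 replicate 1 and 3.75 in wild type replicate 1, against 43.9 to 88.2 on the other 4 arrays. The ratio of the 3' to the 5' actin control was also highest there, 3.34 in pho1 replicate 1 and 2.58 in wild type replicate 1, against 1.82 to 2.22 elsewhere. Every result on the 2 expansins is therefore given for each replicate number and for replicates 2 and 3 alone.

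EXPA8 was lower in pho1 leaves in every replicate, but by very different amounts. Its signal was 698, 254 and 230 in pho1 replicates 1, 2 and 3, against 987, 1296 and 893 in wild type replicates 1, 2 and 3. The groups do not overlap, and the pho1 replicate 1 array lies much nearer to wild type than the other 2 pho1 arrays do. The means were 394 ± 264 in pho1 and 1059 ± 211 in wild type (SD, n = 3 each), so that the pho1 mean was 37.2% of the wild-type mean. By replicate number the pho1 signal was 70.7%, 19.6% and 25.7% of the wild-type signal.

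On the log2 scale, log2(signal + 10), the EXPA8 difference of pho1 minus wild type was -1.57 ± 0.40 (SE from the limma fit across all tested probe sets). It was -0.49 in replicate 1, -2.31 in replicate 2 and -1.91 in replicate 3, and -2.11 ± 0.19 (SE) over replicates 2 and 3 alone. EXPA8 was proposed for study with this contrast known, so these differences are a description and carry no p-value. Among the 15922 tested probe sets, the EXPA8 difference ranked as number 19 from the bottom. In replicate 1 alone 9.28% of the tested probe sets had a lower difference than EXPA8, whereas in replicates 2 and 3 those shares were 0.044% and 0.16%.

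EXPA8 varied more among the pho1 arrays than among the wild-type arrays. Its SD on the log2 scale was 0.86 among the pho1 arrays and 0.28 among the wild-type arrays. For the 818 other tested probe sets with a mean log2 level within 0.5 of that of EXPA8, the median SD was 0.27 among pho1 arrays and 0.24 among wild-type arrays. The pho1 spread of EXPA8 exceeded that of 97.7% of these probe sets, and its wild-type spread exceeded that of 58.6% of them.

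EXPB3 was also lower in pho1 in every replicate, by a more even amount. It was a smaller amount than for EXPA8 on average and in replicates 2 and 3, but not in replicate 1. Its signal was 68.6, 83.5 and 46.6 in pho1 replicates 1, 2 and 3, against 117.1, 127.7 and 141.6 in wild type replicates 1, 2 and 3. The groups do not overlap, and here the pho1 array nearest to wild type is replicate 2, not replicate 1. The means were 66.2 ± 18.6 in pho1 and 128.8 ± 12.3 in wild type (SD, n = 3 each), and the pho1 mean was 51.4% of the wild-type mean. By replicate number the pho1 signal was 58.6%, 65.4% and 32.9% of the wild-type signal.

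**Figure D1:**
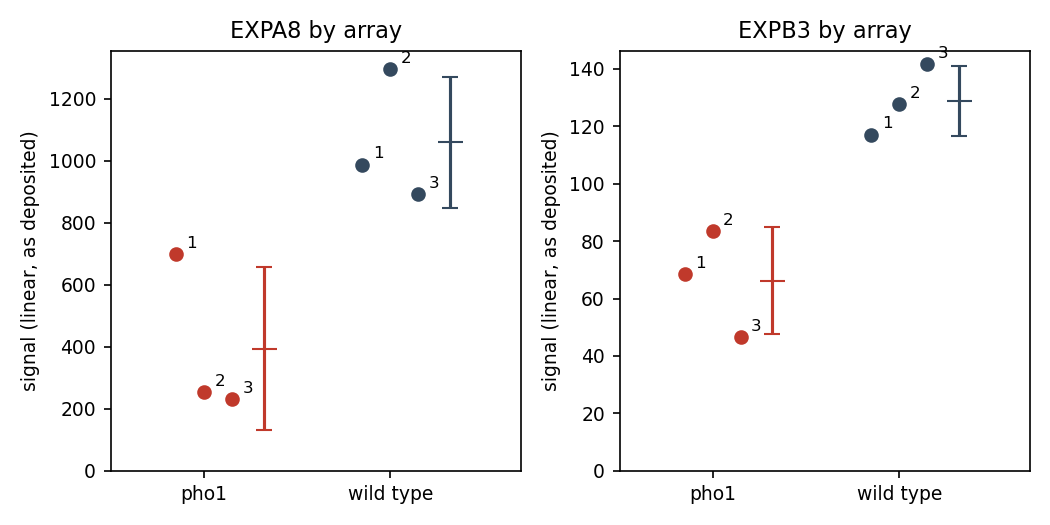
Signals of EXPA8 (left) and EXPB3 (right) on each array, as deposited on a linear scale that starts at 0; points are arrays numbered by replicate, and the bar beside each group is its mean with the SD of 3 arrays. All pho1 points lie below all wild-type points for both genes, and pho1 replicate 1 of EXPA8, at 698, lies well above the other 2 pho1 arrays at 254 and 230.

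The log2 difference of EXPB3 was -0.89 ± 0.21 (SE from the limma fit), again a description. It was -0.69, -0.56 and -1.42 in replicates 1, 2 and 3, and -0.99 ± 0.24 (SE) over replicates 2 and 3 alone. Its rank from the bottom was 181 among the tested probe sets, and 4.3%, 9.41% and 0.55% of the tested probe sets had lower differences in replicates 1, 2 and 3. The wild-type arrays agreed closely for this gene, with a log2 SD of 0.13, below that of most probe sets of like level: 24.5% of these 4380 probe sets had a smaller one. Its pho1 SD of 0.37 exceeded that of 81.3% of them.

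The 2 genes thus shared a direction but not a pattern over the replicates. The difference of EXPA8 minus that of EXPB3, both on the log2 scale, was 0.20 in replicate 1, -1.75 in replicate 2 and -0.49 in replicate 3. Its sign was not the same in all replicates, and no test was made of it.

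The background for both genes is as follows. In the fit across all tested probe sets, 472 passed (limma, adjusted p under 0.05), which is 2.96% of those tested: 2.62% were higher and 0.345% lower in pho1. Groups without overlap were frequent, with all pho1 arrays below all wild-type arrays in 9.01% of the tested probe sets and above them in 10.8%. Differences at or below -0.5 in each of the 3 replicates, as in EXPB3, were found in 1.46%. Differences at or below -1 in both replicates 2 and 3, as in EXPA8, were found in 0.948%, or 151 probe sets. Over these 151, picked by replicates 2 and 3 only, the replicate 1 difference had a median of -0.44 and ran from -2.19 to 0.74. EXPA8, at -0.49, lay near the middle of them, with 70 lower and 80 higher in replicate 1. Smaller differences in replicate 1 can follow from picking by large ones in replicates 2 and 3, so the median shows no trait of replicate 1 by itself.

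**Figure D2:**
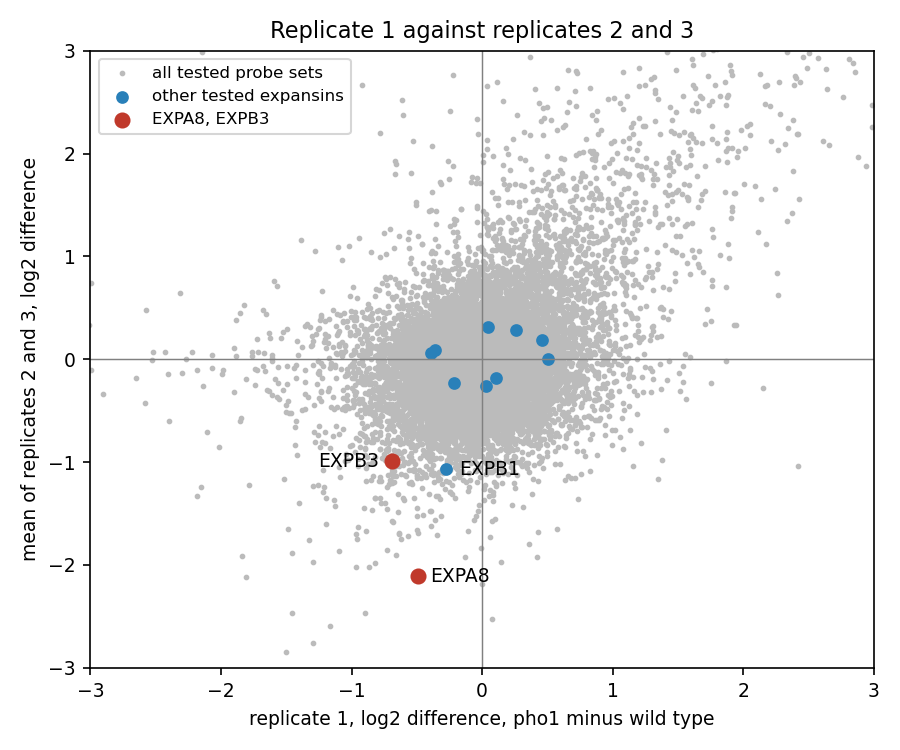
Log2 difference of pho1 minus wild type in replicate 1 (horizontal) against the mean difference of replicates 2 and 3 (vertical) for the tested probe sets in grey, with other tested expansins in blue and EXPA8 and EXPB3 in red; 101 probe sets beyond 3 on either axis are not shown. EXPA8 lies low on the vertical axis at -2.11 and nearer to 0 on the horizontal axis at -0.49, where 9.28% of the tested probe sets were lower. EXPB3 lies at -0.99 on the vertical axis and at -0.69 on the horizontal axis.

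Of the 17 other expansins and expansin-like genes with a probe set, 10 were bright enough to be tested and 7 were not. None of the 10 passed over all probe sets with limma, and 1 of them, EXPB1, had an unadjusted p under 0.05, as did 15.1% of all tested probe sets. Their log2 differences ran from -0.80 to 0.28 with a median of -0.08, against a median of -0.02 over all tested probe sets. By direction, 6 lay below 0 and 4 above it. No overlap was seen in 2 of the 10, EXPB5 and EXPA20, both higher in pho1, as were 10.8% of all tested probe sets.

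EXPB1, another beta expansin, came closest to EXPA8 within the family. Its signal was 50.4, 24.2 and 19.3 in pho1 replicates 1, 2 and 3, against 63.0, 63.6 and 49.7 in wild type. The pho1 replicate 1 array overlaps the wild-type range, while the other 2 pho1 arrays are well below it. On the log2 scale it differed by -0.80 ± 0.27 (SE; limma adjusted p = 0.20). It was -0.27, -1.11 and -1.03 by replicate number, and -1.07 over replicates 2 and 3 alone (limma adjusted p = 0.0096), a fit in which 9.26% of the tested probe sets passed in that direction. It also passed when pho1 replicate 1 alone was left out, a fit in which 6.53% of the tested probe sets passed in either direction.

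EXPA8 and EXPB3 carry no p-value, so no comparison of passing is made with them. None of the other tested alpha expansins passed. EXPA18, known from root hairs, had 28.8, 26.5 and 14.9 in pho1, against 35.1, 27.3 and 23.5 in wild type, which gave -0.23 ± 0.23 on the log2 scale (SE; limma adjusted p = 0.73). Differences were -0.09 for EXPA4, -0.06 for EXPA9, 0.17 for EXPA15 and 0.28 for EXPA20, with limma adjusted p between 0.55 and 0.94. The signs of EXPA4 and EXPA9 turned when single arrays were left out. EXPA15 had 110.2, 92.0 and 87.7 in pho1, against 74.7, 72.4 and 110.0 in wild type, so its groups overlapped.

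The remaining beta expansins and expansin-like genes did not pass either. EXPB2 differed by -0.17 ± 0.22 and EXPB5 by 0.28 ± 0.17 on the log2 scale (SE; limma adjusted p = 0.80 and 0.51). EXPB5 had 21.2, 21.8 and 18.5 in pho1, against 16.1, 15 and 14.3 in wild type, close to the limit of 17.4 below which probe sets were not tested. The expansin-like genes, relatives whose wall-loosening activity is not established, differed by 0.22 (EXLB1) and -0.09 (EXLA1), with limma adjusted p of 0.68 and 0.94, and the sign of EXLA1 turned when single arrays were left out. Across the 10 tested genes, EXPA18 and EXPB1 were lower in all 3 replicates, EXLB1, EXPB5 and EXPA20 were higher in all 3, and the other 5 had mixed signs; 22.2% of all tested probe sets were lower and 20.8% higher in all 3.

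**Figure D3:**
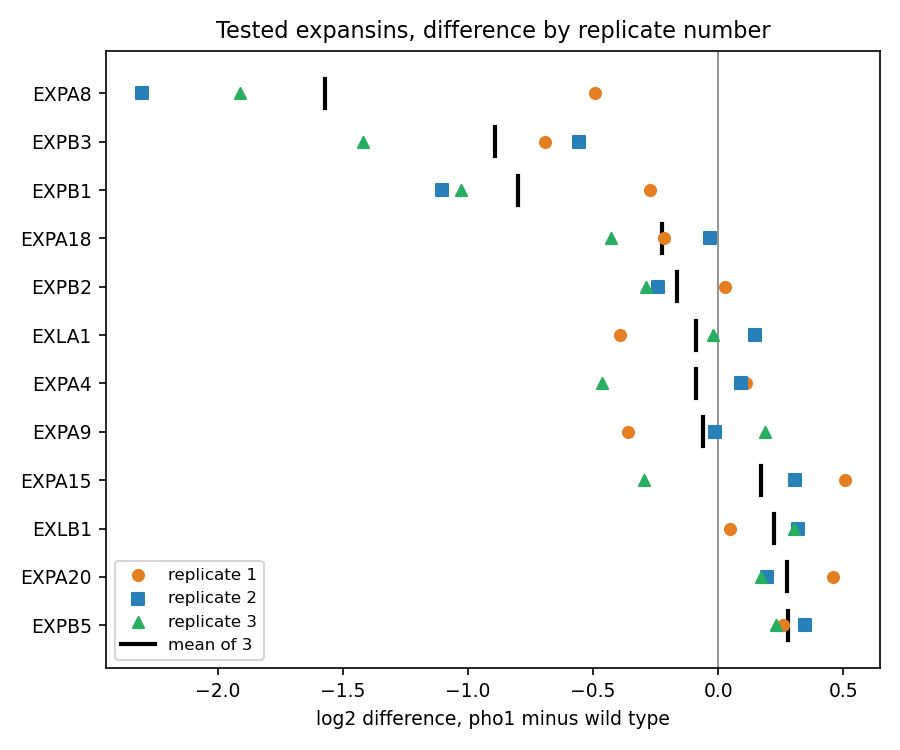
Log2 difference of pho1 minus wild type for the 12 tested expansins, sorted by the mean, with a point for each replicate number and a black bar for the mean of 3. EXPA8 and EXPB3 lie lowest at -1.57 and -0.89, EXPB1 follows at -0.80 with replicate 1 apart from replicates 2 and 3, and the other 9 lie between -0.23 and 0.28.

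The 7 untested expansins were dim on these leaf arrays. EXPA7, known from root hairs like EXPA18, had 27.1, 4.4 and 8.0 in pho1, against 31.3, 13.0 and 18.5 in wild type. EXPA16 had 17.7, 23.4 and 29.7 in pho1, against 7.5, 15.4 and 12.7 in wild type, and EXPA21 had 12.1, 8.3 and 7.6 in pho1, against 2.8, 4.6 and 3.1 in wild type; both were higher in pho1 without overlap. EXLA2 had 3.7, 5.5 and 3.4 in pho1, against 11.3, 9.1 and 9.0 in wild type, lower without overlap. EXLA3 lay between 4.1 and 10.2 in pho1 and between 1.6 and 6.0 in wild type. EXPA24 and AT4G30380, an expansin-like gene, stayed at or below 4.2 on every array. No detection calls were used here, and many of these low signals are values near the floor of the array, without a test in the main fit. EXPA16 lay just under the limit for testing, and its log2 difference was 0.62. Over replicates 2 and 3 alone EXPA16 was tested and differed by 0.60 (limma adjusted p = 0.073). The shares without overlap given above cover tested probe sets only.

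Profiles were compared over the 6 arrays by the root mean square difference between log2 values after each probe set was centred on its own mean, among 8845 other tested probe sets with a single listed gene. The 5 nearest to EXPA8 were AT2G36145, AT1G78995, HAT2, AT5G02230 and AT4G12830, with distances of 0.22, 0.24, 0.25, 0.27 and 0.28. HAT2 encodes a homeodomain-leucine zipper transcription factor known for its induction by auxin. Its signal was 174, 82.1 and 66.5 in pho1 replicates 1, 2 and 3, against 242, 278 and 190 in wild type, so it repeats the position of EXPA8 in pho1 replicate 1. AT2G36145 had 256, 128 and 89.4 in pho1, against 404, 394 and 350 in wild type. Since they were picked for likeness to EXPA8, their differences are no further evidence, and no p-values are given.

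The 5 nearest to EXPB3 were AT3G54250, AT1G49560, AT3G48200, AT5G10920 and AT1G62290, with distances of 0.12, 0.14, 0.14, 0.16 and 0.16. AT5G10920 had 111, 124 and 105 in pho1, against 194, 223 and 227 in wild type. No gene was among the nearest of both expansins. Seen from EXPA8, EXPB1 was number 24 and EXPB3 number 236 in the order of likeness; seen from EXPB3, EXPB1 was number 665 and EXPA8 number 6506. The distance grows with the size of the differences, which places many flat probe sets nearer to EXPB3 than the steep profile of EXPA8.

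**Figure D4:**
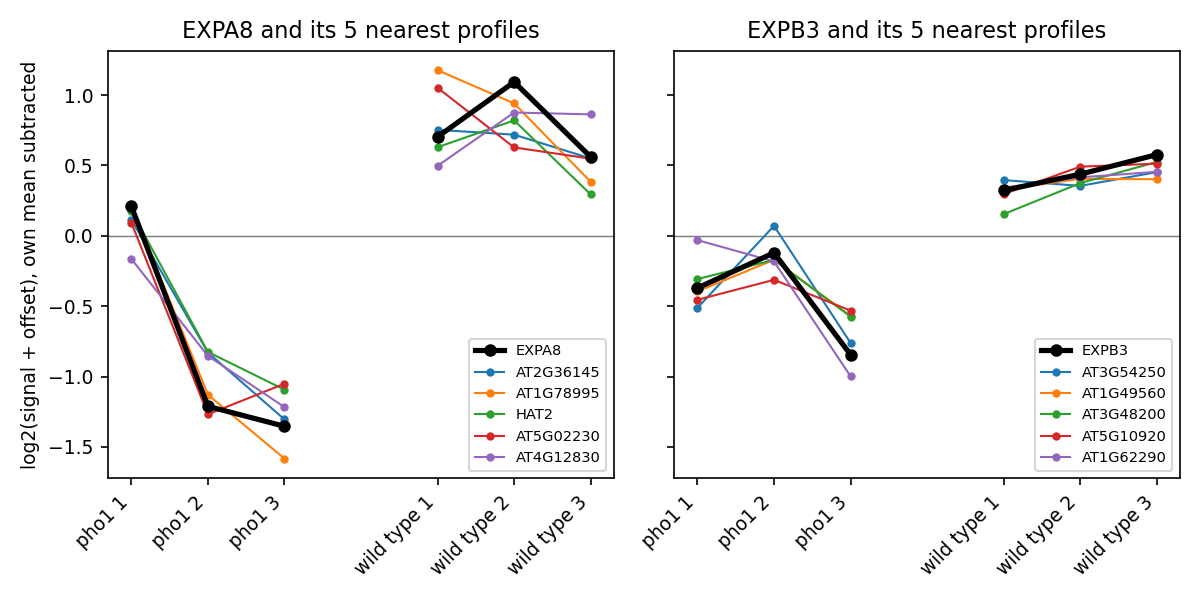
Log2(signal + offset) on each array with the gene's own mean subtracted, for EXPA8 (left, black) and EXPB3 (right, black) with their 5 nearest genes in colour; pho1 arrays stand left of wild-type arrays and lines only join arrays of a group. The EXPA8 set has pho1 replicate 1 far above pho1 replicates 2 and 3, and in the EXPB3 set the wild-type arrays lie close together.

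Expansins work beside other wall enzymes and downstream of growth hormones, and 11 lists of such genes, expansins included, were set up by symbol. Lists for extensins and arabinogalactan proteins, for plasma membrane proton pumps and for water channels had no probe set with a single listed gene. The others, with EXPA8 and EXPB3 left out, held 51 probe sets, of which 30 were tested. An unadjusted limma p under 0.05 was seen in 3 of the 30, EXPB1, IAA29 and GID1B, against 15.1% of all tested probe sets. None of the 30 passed with limma, against 2.96% of all tested probe sets. Their median log2 difference was 0.04, with 16 above and 14 below 0.

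Among the 30 tested genes, the hormone response genes GID1B and IAA29 had the largest differences in either direction. IAA29, an auxin-induced repressor of auxin signalling, had 81.8, 53.3 and 32.6 in pho1 replicates 1, 2 and 3, against 173.6, 100.3 and 68.0 in wild type replicates 1, 2 and 3. Pairs by replicate number, also used for the block below, were taken from the data, and numbers 2 and 3 are not clearly told apart. The groups overlap, but within each replicate number IAA29 was about equally lower in pho1, by -1.0, -0.80 and -0.87 on the log2 scale. Its mean difference was -0.89 ± 0.36 (SE; limma adjusted p = 0.29), and the replicate number as a block gave limma adjusted p = 0.014, in a fit where 1.69% of all tested probe sets passed as lower in pho1.

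GID1B, a gibberellin receptor gene, went the other way. It had 18.6, 66.4 and 77.4 in pho1, against 12.3, 17.5 and 23.4 in wild type, and like EXPA8 its difference was small in replicate 1 (0.36) and large in replicates 2 and 3 (1.47 and 1.39). The mean difference was 1.07 ± 0.40 (SE; limma adjusted p = 0.25), and it was 1.43 over replicates 2 and 3 alone (limma adjusted p = 0.0030), where 9.72% of all tested probe sets passed as higher in pho1. The other receptor genes differed by 0.36 (GID1A) and -0.04 (GID1C), with limma adjusted p of 0.44 and 0.95, and the sign of GID1C turned in replicates 2 and 3 alone. GH3.17, which encodes an enzyme that conjugates auxin to an amino acid, differed by 0.58 (limma adjusted p = 0.35). Over replicates 2 and 3 alone it differed by 0.93 (limma adjusted p = 0.025). WES1, also of the auxin response list, differed by 0.51 (limma adjusted p = 0.50), and by 0.96 over replicates 2 and 3 alone (limma adjusted p = 0.043). In the main fit 4 of the 6 tested auxin response genes lay above 0, with a median of 0.04, as did 7483 of the 15922 tested probe sets. Over replicates 2 and 3 alone 3 of 5 lay above 0, with a median of 0.006.

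The tested wall enzymes lay on both sides of 0, and none passed in the main fit. They were few: 3 of 40 xyloglucan genes in the gene table, 2 of 25 cellulose genes and 3 of 38 pectin genes. Of 3 tested xyloglucan enzymes, which cut and rejoin the glycan tethers of cellulose, XTH32 differed by -0.52 and EXGT-A3 by 0.39 (limma adjusted p = 0.39 and 0.40). EXGT-A3 had 533, 464 and 475 in pho1, against 455, 308 and 364 in wild type, higher without overlap. COB, a membrane-anchored protein needed for oriented cellulose deposition, differed by -0.29 (limma adjusted p = 0.58) and GH9A3, an endoglucanase of the cellulose list, by -0.19 (limma adjusted p = 0.73). All 3 tested pectin genes lay above 0 (median 0.28), among them the galacturonosyltransferase gene GAUT15 at 0.21 and the pectin methylesterase gene ATPMEPCRB at 0.31 (limma adjusted p = 0.62 and 0.70). ARL, a promoter of cell expansion in leaves, differed by 0.61, the growth regulator TCP15 by -0.22 and the replication gene PRL (MCM7) by -0.06 (limma adjusted p = 0.45, 0.75 and 0.93). Over replicates 2 and 3 alone ARL differed by 0.69 (limma adjusted p = 0.034).

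Leaf and cell type markers were read beside both expansins. The 8 photosynthesis genes had a median log2 difference of 0.04 and none passed with limma (0 had an unadjusted p under 0.05). SBPASE differed by -0.56 and LHCB4.3 by -0.72 (limma adjusted p = 0.39 and 0.48). Both were lower in pho1 in replicates 2 and 3 and not clearly so in replicate 1. There SBPASE differed by -0.07 and LHCB4.3 by 0.24, whereas EXPA8 was lower, at -0.49. In LHCB4.3 the array that stood apart was wild type replicate 1, at 127.4 against 447.2 and 387.7 in wild type replicates 2 and 3. In EXPA8 it was pho1 replicate 1. Over replicates 2 and 3 alone SBPASE passed at -0.80 (limma adjusted p = 0.019) and LHCB4.3 at -1.20 (limma adjusted p = 0.0029), the fit in which 9.26% of all tested probe sets passed as lower. The summed signal of the 4 leaf markers RCA, LHCB4.1, LHCB4.2 and LHCB4.3 lay between 9518 and 15960 in pho1 and between 9349 and 16658 in wild type, with the replicate 1 array highest in each group. For FMA, MUTE and SPCH, 3 regulators of stomatal development, the sum lay between 71.2 and 105.8 in pho1 and between 62.9 and 76.5 in wild type. Most of it was FMA, between 66.9 and 91.7 in pho1 and between 54.0 and 69.3 in wild type. MUTE and SPCH were at or below 10.4 on every array. The trichome gene TRY lay between 12 and 25.7 in pho1 and between 26.5 and 38.4 in wild type, and the root gene PYK10 between 278 and 571 in pho1 and between 173 and 398 in wild type. The part of these markers, and of the replicate 1 controls, in the expansin differences was not tested.

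Of the 4 genes that flank EXPA8 and EXPB3 in the gene table, 1 passed, and it differed in the opposite direction; of all tested probe sets 2.96% passed, 2.62% as higher in pho1. Beside EXPA8, AT2G40600 had 200, 326 and 381 in pho1, against 215, 198 and 236 in wild type, or 0.42 on the log2 scale (limma adjusted p = 0.48, and 0.021 over replicates 2 and 3 alone). AT2G40620 differed by 0.03, with a sign that turned under other scalings and without single arrays. Beside EXPB3, AT4G28260 rose in pho1: it had 308, 384 and 502 in pho1, against 136, 113 and 125 in wild type, or 1.58 ± 0.21 on the log2 scale (SE; limma adjusted p = 0.0066). On the other side of EXPB3, AT4G28240 had 926, 353 and 395 in pho1, against 1745, 594 and 603 in wild type; it was lower by -0.91, -0.73 and -0.60 on the log2 scale in replicates 1, 2 and 3 (limma adjusted p = 0.56, and 0.027 with the replicate number as a block).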

How the data were processed

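The deposited table holds linear intensity values per probe set, made by the authors with MAS5 per the submitters' processing notes; version and scaling target are not given in the sources used here. Trimmed means (2% off each end) were near 100 on all arrays, median signals 41.2 to 46.5; arrays limit the precision, and no 2 held identical values. Arrays were scaled to the mean trimmed mean (100.01), log2 taken with 10% of it (10.0) added, 64 controls left out, and 15922 probe sets tested (mean log2 value not under the 30th percentile) with limma 3.58.1 in R 4.3.3 (intensity trend, two-sided, Benjamini-Hochberg, threshold 0.05), a procedure tested on simulated data. Fold changes understate dim probe sets. Plots used matplotlib 3.10.9. Names came from the platform annotation, updated through a RefSeq gene table (TAIR10.1): of 22746 non-control probe sets, 13513 had 1 gene, 503 several and 8730 none listed. Sequences were not used here.

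Same-numbered arrays deviated together (correlations across probe sets of 0.42, 0.22 and 0.39), so the numbers were taken as pairs, from the data and not the labels. Pho1 replicate 2 correlated more with wild type replicate 3 (0.33) than with its own number, so numbers 2 and 3 are not clearly told apart. The main comparison has no block. Both expansins and all lists were chosen with earlier results of these data known. Genes named are all expansins, from each other list up to 4 called members or else the 2 with smallest p, and the 5 nearest profiles. The 3 strongly differing genes, neighbours, GID1C, XTH19 and WES1 were added after values were seen. A presenilin gene matching the symbol PS2 and a formate dehydrogenase matching the epidermal symbol FDH were dropped; that left no phosphate starvation list and no epidermal, vascular or meristem marker. Other scalings, offsets, filters, variance models, blocks and arrays left out were tried.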

Additional observations from a re-analysis of the deposited data

How the results depend on the processing

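EXPA8 and EXPB3 were lower in pho1 under the 13 alternatives that can change their estimated difference, with log2 differences from -2.11 to -1.29 for EXPA8 and from -1.05 to -0.63 for EXPB3; leaving out single arrays gave -2.07 to -1.29 and -1.05 to -0.69. The other 5, the replicate block among them, leave the differences at -1.57 and -0.89 by construction in this balanced design and say nothing of stability. The number of probe sets called, 472, was 289 with no filter, 1057 with the replicate block, 3789 with array weights, 3021 in replicates 2 and 3 only, 1319 with the spike-in sets as a block (chosen after seeing the data), and 161 to 1040 without single arrays. Among wild type it was 182 without replicate 2 and 303 without replicate 3, and for pho1 1040 without replicate 1, 161 without replicate 2 and 162 without replicate 3. Calls among the listed growth and wall genes, 0 of 30, became 1 with an offset of 50% (XTH19), 1 with the replicate block (IAA29, the only call it changed among them), 7 of 30 (23.3%) with array weights against 23.8% of all tested probe sets, 6 of 29 (20.7%) in replicates 2 and 3 only against 19%, 4 of 30 (13.3%) with the spike-in sets as a block against 8.28%, and 0 to 2 without single arrays (EXPB1 and GID1B without pho1 replicate 1). SBPASE and LHCB4.3 also passed with array weights (limma adjusted p = 0.016 and 0.0044), and LHCB4.3 without wild type replicate 1 (limma adjusted p = 0.013). The sign turned for 6 named genes that were not called. EXPA9 was at 0.086 in replicates 2 and 3 only and from -0.24 to 0.17 when single arrays were left out. EXLA1 was at 0.034 with array weights, at 0.065 in replicates 2 and 3 only and from -0.31 to 0.23 when single arrays were left out. GID1C was at 0.15 with array weights, at 0.12 in replicates 2 and 3 only and from -0.23 to 0.097 without single arrays. AT2G40620 was at -0.042 with median centring, at -0.046 with quantile normalization and from -0.070 to 0.22 without single arrays. EXPA4 ran from -0.18 to 0.077 and PRL from -0.17 to 0.068 in this way. The cause of these changes was not tested. With 3 arrays per group, small differences could not be separated from the spread.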
